A study of Mus musculus with 8 samples.

Results

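Solute carriers are the largest family of membrane transport proteins in mammals. They move sugars, amino acids, organic acids, ions, metals, nucleosides and cofactors across the plasma membrane and the membranes of organelles. The members were all genes of the deposited table whose symbol is Slc followed by a digit, with pseudogene symbols left out, which gave 184 of 13245 genes. They were placed in groups by family and known substrate. T cells take up glucose through Slc2a1 (GLUT1) and Slc2a3 (GLUT3), large neutral amino acids through the heterodimer of Slc7a5 (LAT1) and Slc3a2 (CD98 heavy chain), glutamine through Slc1a5 (ASCT2) and the Slc38 carriers, and pass lactate through Slc16a1 (MCT1) and Slc16a3 (MCT4). These carriers are known to be raised when T cells are activated. The Slc25 family works in the inner mitochondrial membrane, and Slc30 (ZnT) and Slc39 (ZIP) proteins move zinc out of and into the cytosol.

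RNA-seq was done on CD8 T cells sorted from mouse lymph node as Ly6C+CXCR3+, in 4 libraries from B6 (C57BL/6, wild type) mice and 4 from CD103Tg mice, which per the series title overexpress CD103. No treatment and no age is given in the labels, nor the promoter or the cells that drive the transgene, nor whether each library came from its own animal, so p-values measure the spread between these samples, which may be technical. Values are CPM, read counts relative to library size, which the authors scaled by the trimmed mean of M-values (TMM). Fold changes compare CD103Tg with B6 on the log2(CPM + 1) scale, which understates changes of low genes. The series title frames the question as the effect of CD103 overexpression on memory phenotype CD8 T cells. In bulk RNA, fewer cells of a type and less RNA per cell cannot be told apart.

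The estimated reads over the listed genes ranged from 50187288 to 56371485 per library. Itgae, the CD103 gene, stood at 37.5 to 173.9 CPM in B6, the highest value being replicate 4, and at 3469 to 5509 CPM in CD103Tg. The CD8 T cell markers Cd3d, Cd3e, Cd3g, Cd8a, Cd8b1 and Lck summed to 7283 to 8227 CPM in B6 and 6791 to 7806 CPM in CD103Tg. Of these, Cd8a was called lower, with means of 1191 CPM in B6 and 1006 CPM in CD103Tg (limma adjusted p = 0.00602). The other 5 did not pass. Some markers of other cells moved with the groups. The 6 of 8 dendritic cell markers with a row summed to 6.14 to 10.3 CPM in B6 and 25.1 to 34.9 CPM in CD103Tg. The groups did not overlap in H2-Aa, H2-Ab1, Xcr1 and Siglech but did in Flt3 and Cd209a. Of 10 macrophage markers, 5 had a row, and they summed to 4.65 to 66.2 CPM and 14.5 to 94.2 CPM. The B cell markers, of which Ighm made up most, summed to 829 to 919 CPM and 348 to 550 CPM. Ighm and Ighd were called lower, but Cd79a and Ebf1 were called higher. The 5 of 6 natural killer cell markers with a row summed to 163 to 190 CPM and 314 to 394 CPM. Eomes made up most of this sum, at a mean of 164 CPM in B6 and 345 CPM in CD103Tg. The groups did not overlap in Eomes and Klrb1c but did in Tyrobp, Fcer1g and Ncr1. Tyrobp was called higher, while Fcer1g and Ncr1 had lower means in CD103Tg (2.79 and 2.30 CPM, 0.506 and 0.401 CPM). Pecam1, the 1 of 7 stromal and endothelial cell markers with a row, was called lower. Its means were 87.8 CPM in B6 and 63.3 CPM in CD103Tg (limma adjusted p = 0.00125). Cd4, Foxp3, Cd14 and the C1q genes had no row. Erythroid markers summed to 56.0 CPM in B6 replicate 4 and 185 CPM in CD103Tg replicate 4, against at most 9.66 CPM in the other libraries. Their part in the results below was not tested, and no library was left out of the reported values.

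Carrier transcripts made up 0.985% of the signal in B6 and 0.977% in CD103Tg. They summed to 9745 ± 168 CPM over the B6 libraries and 9871 ± 221 CPM over the CD103Tg libraries (all such values are mean ± SD, n = 4 a group). Of the 184 members, 169 had a mean of at least 1 CPM and were tested. At a limma adjusted p under 0.05, 57 of the 169 (33.7%) were called, against 31.2% of all 11503 tested genes. The 29 called higher were 17.2% of the tested members (17.4% of all genes), and the 28 called lower were 16.6% (13.8% of all genes). The members' share was thus near the background. The median log2 fold change was 0.006 over the members and -0.005 over all tested genes.

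Most called changes were small. The change was at least 2-fold on the log2 scale in 6 members (3.55%, against 4.96% of all tested genes), and 37 of the 57 calls were under 0.5. Calls this small made up 21.9% of the tested members and 18.2% of all tested genes. An absolute log2 fold change under 0.25 was found for 113 members (66.9%), against 67.5% of all tested genes. Of the members with at least a 2-fold change, the 3 that fell were Slc16a5, Slc6a19 and Slc37a2, and those that rose included Slc43a3 and Slc25a24. The libraries of the 2 groups did not overlap in 57 tested members (33.7%, against 31% of all tested genes). The called members whose groups overlapped were Slc12a2, Slc8b1, Slc25a35 and Slc16a6. CD103Tg replicate 4 was the CD103Tg library nearest to B6 in 15 of the 29 members that rose and in 9 of the 28 that fell. CD103Tg replicate 3 was nearest in as many of those that fell (9). Of the B6 libraries, replicate 3 was nearest to CD103Tg in 12 of the 28 that fell.

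**Figure D1:**
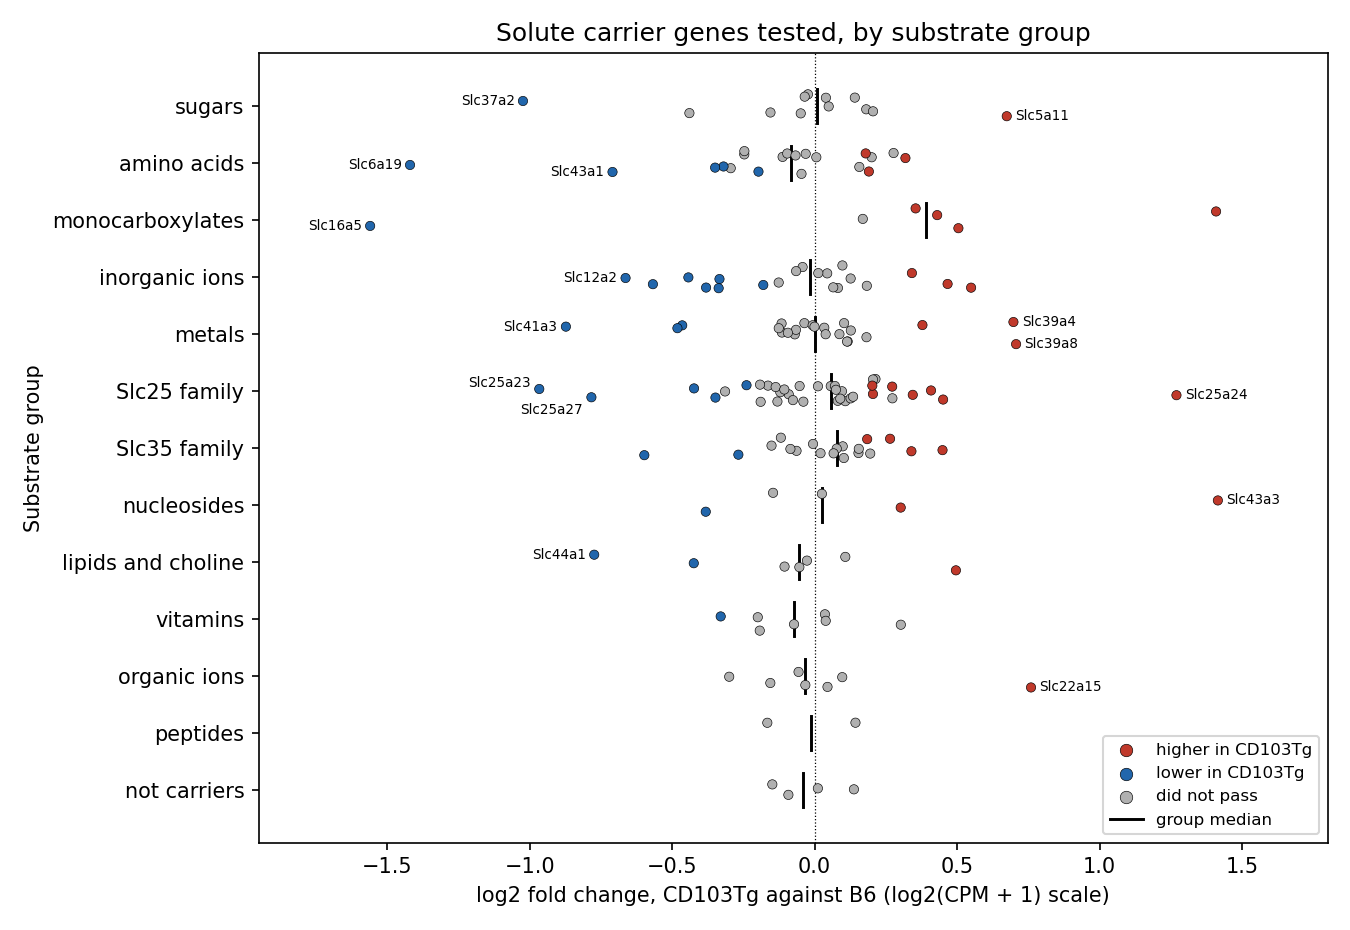
Each point is 1 of the 169 tested solute carrier genes, placed by its log2 fold change (CD103Tg against B6, horizontal axis) in its substrate group (vertical axis, with a random vertical offset); red and blue points were called higher and lower, grey points did not pass, and black lines are group medians. Most points lie within 0.5 of 0, and Slc16a5 (-1.56) and Slc43a3 (1.42) are the extremes.

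Glucose carriers did not pass the test. Slc2a1 (GLUT1) stood at 94.8, 75.3, 71.8 and 85.2 CPM in the B6 libraries and at 101.5, 92.7, 95.04 and 81.3 CPM in the CD103Tg libraries, and the groups overlapped (log2 fold change 0.18 ± 0.09 (SE), limma adjusted p = 0.165). Slc2a3 (GLUT3) was at 91.5 ± 4.78 and 88.7 ± 9.42 CPM (adjusted p = 0.673). None of the 4 tested Slc2 genes was called. Slc2a6 (GLUT6, a lysosomal sugar carrier), below the 1 CPM minimum, stood at 0.312 to 0.546 CPM in B6 and 0.712 to 1.53 CPM in CD103Tg, and passed when all genes were tested (adjusted p = 0.0167).

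Of the 12 tested sugar carriers, 1 rose and 1 fell (16.7% called, against 31.2% of all tested genes). Slc37a2, a sugar phosphate exchanger of the endoplasmic reticulum, stood at 7.43, 5.48, 6.06 and 6.81 CPM in B6 and at 2.58, 1.94, 3.29 and 2.89 CPM in CD103Tg. Every CD103Tg library lay below every B6 library, and the gene fell by 1.024 ± 0.14 on the log2 scale (adjusted p = 0.000251). Its relatives Slc37a1, Slc37a3 and Slc37a4, the last the glucose 6-phosphate carrier, did not pass. Slc5a11, a sodium-coupled inositol carrier, rose from 0.776 ± 0.330 to 1.84 ± 0.599 CPM, a call that was gone without B6 replicate 2 (adjusted p of 0.0529) or CD103Tg replicate 1 (0.0553). Without either of these libraries 1 sugar carrier was called.

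The group of monocarboxylate carriers (Slc16) had the largest share of calls, 5 of 6 tested (83.3%, against 31.2% of all tested genes). Of the calls 4 were higher and 1 lower, and the group's median log2 fold change was 0.39. Slc16a5 (MCT6; GRCm38 chromosome 11, 115462474 to 115474398) stood at 115.4, 97.4, 103.8 and 99.7 CPM in B6 and at 28.2, 34.4, 36.1 and 40.7 CPM in CD103Tg. The lowest B6 library was far above the highest CD103Tg library, and the gene fell by 1.56 ± 0.10 (adjusted p = 1.78e-06).

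The lactate carrier gene Slc16a1 stood at 158.8, 156.9, 131.9 and 129.7 CPM in B6 and at 195.7, 189.3, 181.8 and 170.1 CPM in CD103Tg. It was higher in every CD103Tg library, by 0.35 ± 0.08 (adjusted p = 0.00512). Slc16a3, the lactate exporter MCT4, had low values, 1.07 ± 0.214 and 1.97 ± 0.581 CPM (0.50 ± 0.16, adjusted p = 0.0317). Slc16a6 (MCT7) rose from 25.5 ± 4.22 to 34.6 ± 5.25 CPM (adjusted p = 0.0251). Slc16a3 lost its call without any of 5 libraries (B6 replicates 1, 3 and 4 and CD103Tg replicates 1 and 2, adjusted p = 0.0508 to 0.0902), and Slc16a6 without any of 4 (B6 replicates 2 and 3 and CD103Tg replicates 1 and 3, 0.0675 to 0.0761), which left 3 calls in the group without B6 replicate 3 or CD103Tg replicate 1. Bsg, the basigin gene, whose product carries MCT1 and MCT4 to the cell surface, rose from 201 ± 14.3 to 245 ± 17.0 CPM (0.29 ± 0.07, adjusted p = 0.0073). Mpc2, a subunit of the mitochondrial pyruvate carrier, was at 43.6 ± 2.93 and 50.3 ± 0.939 CPM (adjusted p = 0.0251), a call lost without any of 6 libraries (B6 replicates 1, 2 and 4 and CD103Tg replicates 1, 2 and 3, 0.0532 to 0.0700), and Mpc1 did not pass (adjusted p = 0.632).

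**Figure D2:**
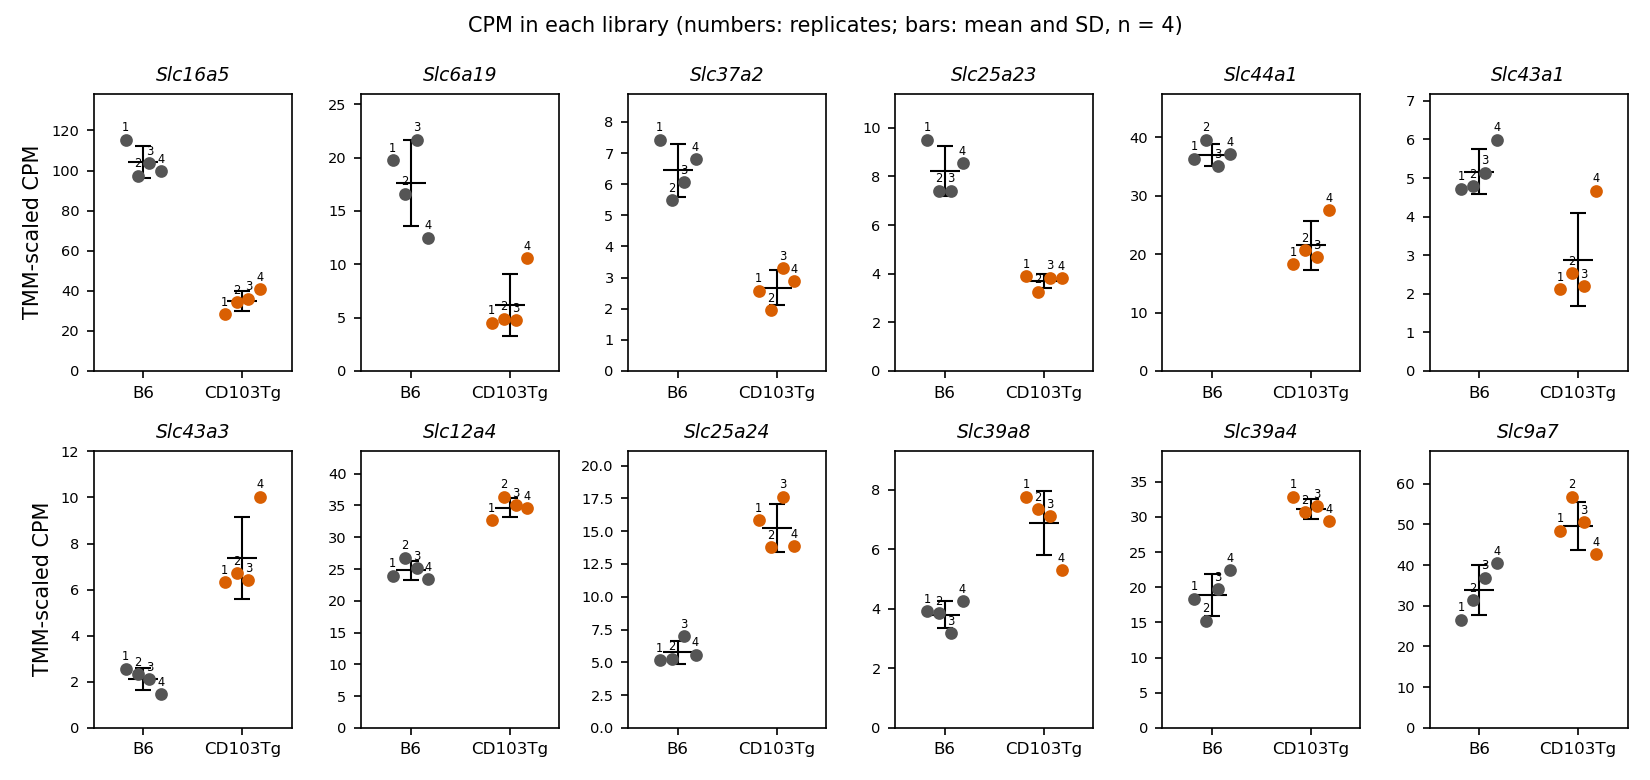
TMM-scaled CPM (vertical axes, each from 0) of 12 solute carrier genes in the 4 B6 (grey) and 4 CD103Tg (orange) libraries, with replicate numbers and the mean and SD. In every panel the groups do not overlap, which was a condition in the choice of these genes. CD103Tg replicate 4 is the CD103Tg library nearest to B6 for Slc16a5, Slc6a19 (10.5 CPM), Slc44a1, Slc43a1 (4.67 CPM), Slc39a8, Slc39a4 and Slc9a7. It is farthest from B6 for Slc43a3 (10.03 CPM).

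Amino acid carriers were divided, with 3 of 20 tested genes higher, 5 lower and 12 not past the test. The called share was 40%, against 31.2% of all tested genes. The main carriers of activated T cells changed little. Slc3a2 had 156 ± 5.87 and 156 ± 7.31 CPM (0.01 ± 0.05, adjusted p = 0.946). Its partner Slc7a5 stood at 88.8, 93.5, 78.4 and 88.2 CPM in B6 and at 98.5, 101.7, 99.3 and 95.5 CPM in CD103Tg. The groups did not overlap, but the difference was 0.18 ± 0.06 (adjusted p = 0.0407), and the call was lost without any of 6 libraries (B6 replicates 1, 3 and 4 and CD103Tg replicates 1, 2 and 3, adjusted p = 0.0557 to 0.105) and with quantile normalization (0.0683) or equal totals (0.105). Slc1a5 (271 ± 39.0 and 301 ± 35.1 CPM), Slc38a1 (214 ± 17.5 and 197 ± 8.70 CPM) and Slc7a6 (61.7 ± 7.51 and 58.6 ± 2.49 CPM) did not pass. Slc7a1, the arginine and lysine carrier CAT1, was at -0.20 ± 0.07 (adjusted p = 0.0493), a call lost without any of the 8 libraries except CD103Tg replicate 1 (0.0525 to 0.124). A pseudocount of 5 (0.0519) or no filter on low values (0.053) also removed this call.

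Slc38a2 (SNAT2, a glutamine and alanine carrier) rose by 0.32 ± 0.08 (adjusted p = 0.0143). It stood at 146.1, 159.2, 146.0 and 174.2 CPM in B6 and at 185.5, 182.6, 184.7 and 230.1 CPM in CD103Tg. Slc38a10 rose by 0.19 ± 0.05 (adjusted p = 0.0104). Slc6a19, the neutral amino acid carrier B0AT1 known from gut and kidney (chromosome 13), stood at 19.8, 16.6, 21.7 and 12.5 CPM in B6 and at 4.54, 4.90, 4.78 and 10.5 CPM in CD103Tg. It fell by 1.42 ± 0.23 (adjusted p = 0.000881), with CD103Tg replicate 4 standing between its own group and B6. Slc43a1 (LAT3) and Slc43a2 (LAT4), which carry branched-chain and aromatic amino acids, fell as well. Slc43a1 stood at 4.73, 4.80, 5.14 and 5.99 CPM in B6 and at 2.12, 2.53, 2.20 and 4.67 CPM in CD103Tg, again with replicate 4 apart, and Slc43a2 fell by 0.35 ± 0.08 (adjusted p = 0.00622). Slc38a9, the lysosomal arginine sensor, was called lower (adjusted p = 0.0351), but not without any of B6 replicates 2 and 4 and the 4 CD103Tg libraries (0.0612 to 0.0863). Without B6 replicate 4, CD103Tg replicate 2 or CD103Tg replicate 3, the amino acid group kept 5 calls.

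Carriers of inorganic ions had 10 calls among 20 tested genes (50%, against 31.2% of all tested genes), 3 higher and 7 lower. Whether any substrate group differs from the background was not tested. The cation-chloride cotransporters (Slc12), which set cell chloride and volume, moved apart. Slc12a7 (KCC4) stood at 297.5, 308.8, 281.2 and 333.3 CPM in B6 and at 219.2, 226.9, 238.2 and 251.8 CPM in CD103Tg, a fall of 0.38 ± 0.06 (adjusted p = 0.000994). Slc12a4 (KCC1) stood at 24.0, 26.8, 25.2 and 23.4 CPM in B6 and at 32.7, 36.4, 35.0 and 34.6 CPM in CD103Tg, a rise of 0.47 ± 0.07 (adjusted p = 0.000379). For both genes the groups were clear of each other, in opposite directions. Slc12a2 (NKCC1), the sodium-coupled chloride importer, was at 13.2 ± 1.81 and 8.20 ± 2.82 CPM (adjusted p = 0.0181). Its groups overlapped through CD103Tg replicate 4 (12.2 CPM), and the call was lost without B6 replicate 3 (0.0516) or CD103Tg replicate 2 (0.0508).

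Of the 4 Slc26 anion carriers 3 fell (75%, against 13.8% of all tested genes) and 0 rose. Slc26a2, a sulfate carrier, went from 38.6 ± 2.20 to 25.8 ± 2.34 CPM (-0.57 ± 0.08, adjusted p = 0.000231), and Slc26a11 fell by 0.34 ± 0.07 (adjusted p = 0.00458). The bicarbonate carrier Slc4a7 fell by 0.44 ± 0.10 (adjusted p = 0.00595). Of 6 tested Slc9 sodium-proton exchangers, 1 rose: Slc9a7 (NHE7, of the Golgi) went from 33.8 ± 6.10 to 49.6 ± 5.84 CPM (adjusted p = 0.00628). Slc8b1, the mitochondrial sodium-calcium exchanger NCLX, was called higher (adjusted p = 0.0352), but not without any of the libraries except CD103Tg replicate 4 (0.0569 to 0.105).

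Among 23 tested metal carriers 3 rose and 3 fell. The called share was 26.1% of these, 27.3% of the tested Slc39 genes and 33.3% of the tested Slc30 genes. It was 31.2% over all tested genes, so these shares were near or below the background. The 3 that rose were all ZIP zinc importers, of 11 tested Slc39 genes, and 2 of the 3 that fell were ZnT exporters, of 6 tested Slc30 genes. No tested ZIP gene was called lower and no tested ZnT gene higher. The difference between the families was not tested. Slc39a4 (ZIP4) stood at 18.4, 15.2, 19.7 and 22.4 CPM in B6 and at 32.9, 30.7, 31.5 and 29.4 CPM in CD103Tg. Slc39a8 (ZIP8) stood at 3.92, 3.86, 3.18 and 4.27 CPM in B6 and at 7.77, 7.35, 7.11 and 5.30 CPM in CD103Tg. Neither gene's groups overlapped, and the changes were 0.70 ± 0.10 (adjusted p = 0.00043) and 0.71 ± 0.13 (adjusted p = 0.00179).

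Slc39a6 (ZIP6), the ZIP gene with the second highest CPM per kilobase of exon, rose from 91.2 ± 5.94 to 119 ± 7.85 CPM (0.38 ± 0.06, adjusted p = 0.00112). Slc39a10, a close relative of Slc39a6, was at 55.8 ± 9.63 and 50.9 ± 2.68 CPM and did not pass (adjusted p = 0.439). Slc30a1 (ZnT1, the exporter of the plasma membrane) stood at 14.7, 14.5, 13.8 and 15.8 CPM in B6 and at 10.2, 9.11, 10.05 and 12.3 CPM in CD103Tg, a fall of 0.46 ± 0.10 (adjusted p = 0.00438). Slc30a4 (ZnT4, of vesicles) fell by 0.48 ± 0.12 (adjusted p = 0.013). The other 4 ZnT genes lay between -0.07 and 0.03. Mtf1, the zinc-sensing transcription factor known to act on Slc30a1, did not pass (0.08 ± 0.07, adjusted p = 0.431).

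**Figure D3:**
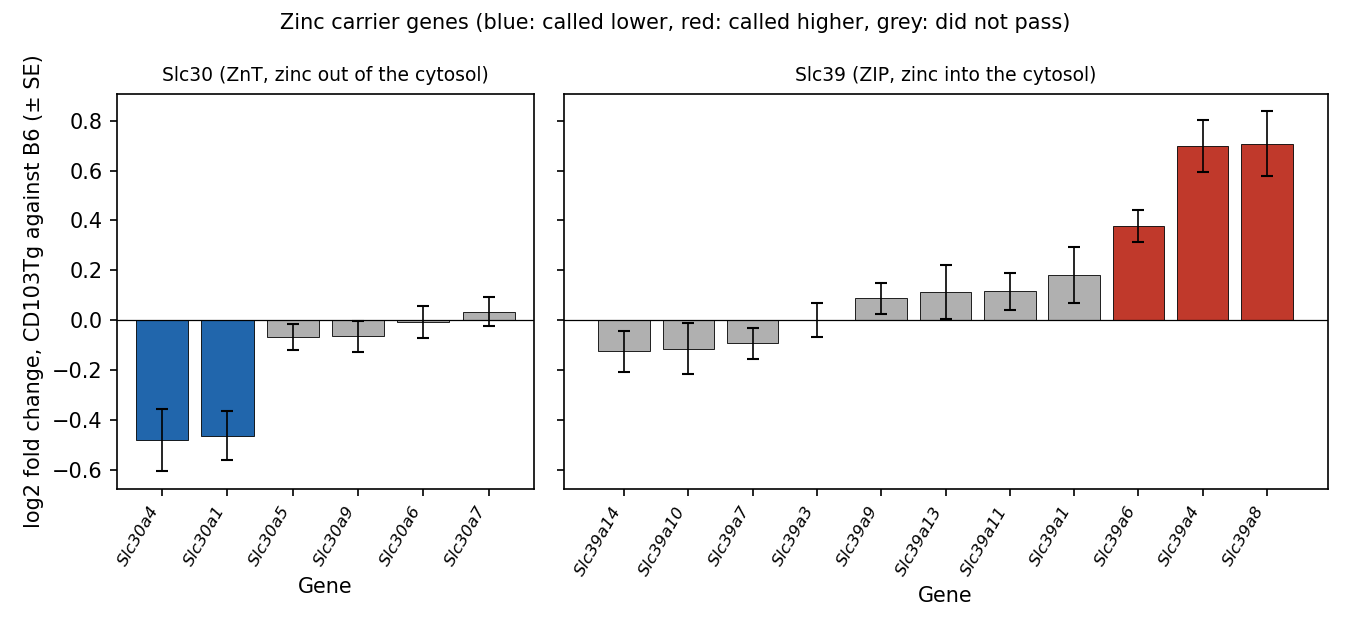
Log2 fold change (CD103Tg against B6, vertical axis, bars from 0 with SE) of the 6 tested Slc30 genes (left) and 11 tested Slc39 genes (right). Slc30a4 (-0.48) and Slc30a1 (-0.46) were called lower and Slc39a6 (0.38), Slc39a4 (0.70) and Slc39a8 (0.71) higher; grey bars did not pass.

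The 250 bases before the RefSeq transcription start (GRCm38.p6) are given for the exporters that fell and for Slc39a8, the importer called higher that had an entry, since their promoters can be read beside the opposite changes. Capitals mark the core of the metal response element, TGCACNC or TGCGCNC on either strand, the site that Mtf1 binds. The windows are chr1:191906531-191906780 (plus strand), chr2:122702664-122702913 (minus strand) and chr3:135825029-135825278 (plus strand), in the order printed.
Slc30a1: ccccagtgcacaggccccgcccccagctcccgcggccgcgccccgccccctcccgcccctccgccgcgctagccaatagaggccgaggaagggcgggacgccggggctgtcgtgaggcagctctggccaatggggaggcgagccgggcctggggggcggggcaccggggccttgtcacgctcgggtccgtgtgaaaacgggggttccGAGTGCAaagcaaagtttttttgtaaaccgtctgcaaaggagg
Slc30a4: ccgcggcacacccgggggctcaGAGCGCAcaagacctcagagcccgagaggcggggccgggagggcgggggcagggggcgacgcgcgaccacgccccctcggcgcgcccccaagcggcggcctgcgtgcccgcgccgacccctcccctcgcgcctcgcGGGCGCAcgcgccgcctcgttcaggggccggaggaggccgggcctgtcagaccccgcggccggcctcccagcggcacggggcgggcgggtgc
Slc39a8: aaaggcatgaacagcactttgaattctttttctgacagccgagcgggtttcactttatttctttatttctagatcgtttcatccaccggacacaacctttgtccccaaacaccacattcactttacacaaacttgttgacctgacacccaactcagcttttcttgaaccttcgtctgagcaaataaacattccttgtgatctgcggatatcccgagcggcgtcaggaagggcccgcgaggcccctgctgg
The core began 43 bases before the start in Slc30a1 and 228 and 92 bases before it in Slc30a4, and these letters did not occur in the Slc39a8 window. It was in 3 of the 6 Slc30 windows and 2 of the 8 Slc39 windows with an entry, and in 21.4% of all 32851 windows of this length. A match is a description of the sequence and not a bound site. RefSeq windows were matched for 141 of the 184 members, each by the start closest to the gene's 5' end, with no limit on distance. Some starts lay far from it, as for Slc39a10 (32924 bases), Slc12a7 (30566) and Slc6a19 (12229). The counts and shares of members given here include such windows. For the printed windows the distance was at most 14 bases. The core was in 30% of the 20 windows of members called higher, 30% of the 20 of members called lower and 26.1% of the 88 of members that did not pass. The E-box CACGTG was in 5%, 10% and 15.9% of these windows and in 6.02% of all windows. The amino acid response element TGATGNAA was in 0%, 5% and 3.41% (3.45% of all). All motifs were searched on both strands. E-boxes and amino acid response elements are sites of the Myc and Atf4 families, respectively.

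Of the 2 tested magnesium carriers of the Slc41 family, 1 was called. Slc41a1 was at 37.2 ± 4.31 and 39.9 ± 2.62 CPM and did not pass (adjusted p = 0.389). Slc41a3 fell from 3.29 ± 0.731 to 1.33 ± 0.286 CPM (-0.87 ± 0.16, adjusted p = 0.00171). Slc41a2, below the minimum mean, stood at 0.110, 0.0585, 0.0959 and 0.444 CPM in B6 and at 2.46, 1.15, 2.27 and 0.996 CPM in CD103Tg, from 40 estimated reads in B6 and 352 in CD103Tg. Its groups did not overlap, and it passed when all genes were tested (1.178 on the log2 scale, adjusted p = 0.000916). The iron and manganese importer Slc11a2 (DMT1) was at 124 ± 3.20 and 121 ± 9.38 CPM (adjusted p = 0.69). Of the genes of iron uptake and storage, Tfrc, the transferrin receptor, was at 47.0 ± 3.41 and 34.6 ± 7.60 CPM with overlapping groups (adjusted p = 0.0204, lost without CD103Tg replicate 1 (0.0573) or 2 (0.0612)). Of 4 tested genes of metal stores and buffers, Aco1 rose from 33.3 ± 2.14 to 40.3 ± 1.72 CPM and Ireb2 was called lower (adjusted p = 0.0399), both encoding iron-responsive RNA-binding proteins. The Ireb2 call was lost without any of B6 replicates 1, 2 and 4 and CD103Tg replicates 1, 2 and 3 (0.0516 to 0.116), which left 1 call in the list without any of the first 3 of these, CD103Tg replicate 2 or CD103Tg replicate 3. Fth1 and Ftl1, the ferritin chains, did not pass.

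The mitochondrial Slc25 family had 37 tested members, of which 7 rose, 5 fell and 25 did not pass. The called share was 32.4%, near the 31.2% of all tested genes. Its most abundant members did not pass. Slc25a5 and Slc25a4, the ADP/ATP carriers ANT2 and ANT1, were at 720 ± 36.4 and 758 ± 15.4 CPM (adjusted p = 0.318) and at 208 ± 23.6 and 220 ± 9.78 CPM (adjusted p = 0.456). The phosphate carrier Slc25a3 was at 250 ± 17.6 and 262 ± 15.3 CPM (adjusted p = 0.428).

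Slc25a24 and Slc25a23, calcium-regulated carriers that exchange ATP-magnesium for phosphate, changed in opposite directions. Slc25a24 (chromosome 3, on GRCm38) stood at 5.15, 5.28, 7.02 and 5.58 CPM in B6 and at 15.8, 13.8, 17.6 and 13.9 CPM in CD103Tg, a rise of 1.27 ± 0.12 (adjusted p = 1.52e-05). Slc25a23 stood at 9.51, 7.41, 7.42 and 8.55 CPM in B6 and at 3.90, 3.26, 3.83 and 3.83 CPM in CD103Tg, a fall of 0.97 ± 0.11 (adjusted p = 6.83e-05). Neither gene's groups overlapped. Per kilobase of exon, the B6 means were 1.68 CPM for Slc25a24 and 1.55 CPM for Slc25a23, and the CD103Tg means 4.45 and 0.700 CPM. Their relative Slc25a25 did not pass (-0.12, adjusted p = 0.293).

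Among carriers of metabolites, Slc25a39, which brings glutathione into mitochondria, stood at 75.3, 70.5, 65.3 and 66.0 CPM in B6 and at 96.0, 99.5, 95.9 and 88.6 CPM in CD103Tg, a rise of 0.45 ± 0.06 (adjusted p = 0.000237). The related Slc25a40 did not pass. Slc25a10, the dicarboxylate carrier, rose from 10.1 ± 1.015 to 13.7 ± 0.225 CPM, and Slc25a22, a glutamate carrier, from 57.1 ± 6.68 to 72.5 ± 5.37 CPM. Slc25a20, the carnitine-acylcarnitine carrier of fatty acid oxidation, was at 31.6 ± 1.79 and 38.5 ± 3.11 CPM (adjusted p = 0.0167, and 0.0528 without CD103Tg replicate 1 or 2). Slc25a51, the NAD carrier, was higher by 0.20 ± 0.06. Slc25a27, a relative of the uncoupling proteins, fell by 0.78 (adjusted p = 0.00393), and the folate carrier Slc25a32 by 0.24 ± 0.06 (adjusted p = 0.00844). The basic amino acid carrier Slc25a29 (-0.35 ± 0.11) and Slc25a35 (-0.42 ± 0.15) were also called. Calls were lost without any of 5 libraries for Slc25a51 (B6 replicates 1 and 2, CD103Tg replicates 2, 3 and 4, 0.0603 to 0.0696), 5 for Slc25a29 (B6 replicates 1, 2 and 3, CD103Tg replicates 2 and 4, 0.0529 to 0.0881) and 6 for Slc25a35 (all but B6 replicate 3 and CD103Tg replicate 3, 0.0659 to 0.117). The Slc25a35 call was also lost with a pseudocount of 0.1 (0.0517), no filter (0.0538) or a minimum mean of 5 CPM (0.055). The same held with voom (0.0505) or a replicate block (0.0626). Equal totals removed the Slc25a51 call (0.052). Without CD103Tg replicate 2 the Slc25 family had 7 calls.

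Nucleoside and nucleobase carriers had 3 calls among 5 tested genes (60%, against 31.2% of all tested genes). Slc28a2 (CNT2), which draws purine nucleosides into the cell with sodium, stood at 186.4, 174.7, 171.4 and 179.3 CPM in B6 and at 131.7, 133.1, 146.2 and 134.5 CPM in CD103Tg, a fall of 0.38 ± 0.05 (adjusted p = 0.000228). Slc29a1 (ENT1), the equilibrative nucleoside carrier, stood at 67.0, 58.9, 63.3 and 65.1 CPM in B6 and at 78.4, 83.7, 79.7 and 72.8 CPM in CD103Tg, a rise of 0.30 ± 0.06 (adjusted p = 0.00345). Slc43a3 (chromosome 2), a purine nucleobase carrier, stood at 2.57, 2.34, 2.13 and 1.45 CPM in B6 and at 6.32, 6.70, 6.42 and 10.03 CPM in CD103Tg. It had the largest rise of the tested members, 1.42 ± 0.16 (adjusted p = 7.56e-05), with CD103Tg replicate 4 above its group. Slc29a4, below the minimum mean with 0.135 and 0.514 CPM, passed when all genes were tested (adjusted p = 0.0206).

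Slc35 proteins bring nucleotide sugars and the sulfate donor PAPS into the Golgi and endoplasmic reticulum for glycan synthesis. Of 19 tested, 4 rose and 2 fell (31.6% called, against 31.2% of all tested genes). Slc35b4, which carries UDP-xylose and UDP-N-acetylglucosamine, stood at 88.7, 98.2, 93.1 and 95.9 CPM in B6 and at 127.3, 142.8, 126.0 and 119.2 CPM in CD103Tg, a rise of 0.45 ± 0.06 (adjusted p = 0.000278). The PAPS carriers moved apart: Slc35b2 rose by 0.34 ± 0.09 (adjusted p = 0.0113) and Slc35b3 fell by 0.27 ± 0.06 (adjusted p = 0.00475). Slc35e1 rose by 0.26 ± 0.06 and Slc35g1 went from 75.0 ± 9.38 to 49.0 ± 2.91 CPM (-0.60 ± 0.09, adjusted p = 0.000392). The UDP-galactose carrier Slc35a2 was called higher (adjusted p = 0.0451), but not without any of the libraries except CD103Tg replicate 4 (0.0605 to 0.126).

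Of 7 tested lipid and choline carriers, 1 rose and 2 fell (42.9% called, against 31.2% of all tested genes). Slc44a1 (CTL1), a choline carrier, stood at 36.4, 39.6, 35.1 and 37.1 CPM in B6 and at 18.3, 20.7, 19.5 and 27.5 CPM in CD103Tg, a fall of 0.77 ± 0.11 (adjusted p = 0.000343). The far more abundant Slc44a2 (84.0 against 4.21 CPM per kilobase of exon) was at 756 ± 48.6 and 702 ± 39.8 CPM and did not pass (adjusted p = 0.236). Slc27a4 (FATP4), a fatty acid carrier, rose from 18.6 ± 1.499 to 26.7 ± 1.85 CPM (adjusted p = 0.000811). Slc27a1 (FATP1) was called lower (adjusted p = 0.0468), a call lost without any of the libraries except CD103Tg replicate 3 (0.0569 to 0.127). This call was also lost with no filter (0.0514), a minimum mean of 5 CPM (0.0551) or voom (0.0528). Slc23a2 (SVCT2), the vitamin C carrier, was the called member among 7 tested vitamin carriers and fell from 58.3 ± 3.68 to 46.2 ± 1.77 CPM (adjusted p = 0.00199). Of 7 tested organic ion carriers, Slc22a15 rose from 0.727 ± 0.185 to 1.95 ± 0.584 CPM (adjusted p = 0.00555). The peptide carriers Slc15a2 and Slc15a4 did not pass, nor did the 4 genes that carry a carrier's name without being carriers (Slc9a3r1, Slc4a1ap, Slc7a6os and Slc36a3os).

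Levels between genes were compared per kilobase of merged exons of GENCODE M21. Slc25a5 was the highest carrier, at 437 CPM per kilobase in B6 and 460 in CD103Tg, followed by Slc25a4 (88.5 and 93.3), Slc44a2 (87.1 and 81.0) and Slc35a4 (71.5 and 76.8). These ranks were the same in both groups. None of the 11 members with the highest level, which include the non-carrier Slc9a3r1, was called. Over all libraries the next in level were Slc35e1, Slc28a2 and Slc16a1, and all of these were called. The cut at 11 thus follows the calls, and a link between level and call was not tested. Slc16a1 rose in rank from 15 to 13 and Slc28a2 fell from 12 to 16. The summed CPM of a group was described without a test. Slc35 carriers summed to 1148 to 1184 CPM in the B6 libraries and 1206 to 1300 CPM in the CD103Tg libraries, and the groups did not overlap. Nor did they for nucleoside carriers (268 to 289 against 246 to 263 CPM) and vitamin carriers (206 to 227 against 188 to 205 CPM), both lower in CD103Tg. The libraries overlapped for the groups that follow. Amino acid carriers summed to 1363 ± 70.7 CPM in B6 and 1405 ± 44.4 CPM in CD103Tg, Slc25 carriers to 2346 ± 98.3 and 2486 ± 69.4 CPM, and sugar carriers to 515 ± 19.97 and 521 ± 24.7 CPM. Inorganic ion carriers summed to 983 ± 50.9 and 914 ± 28.3 CPM.

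**Figure D4:**
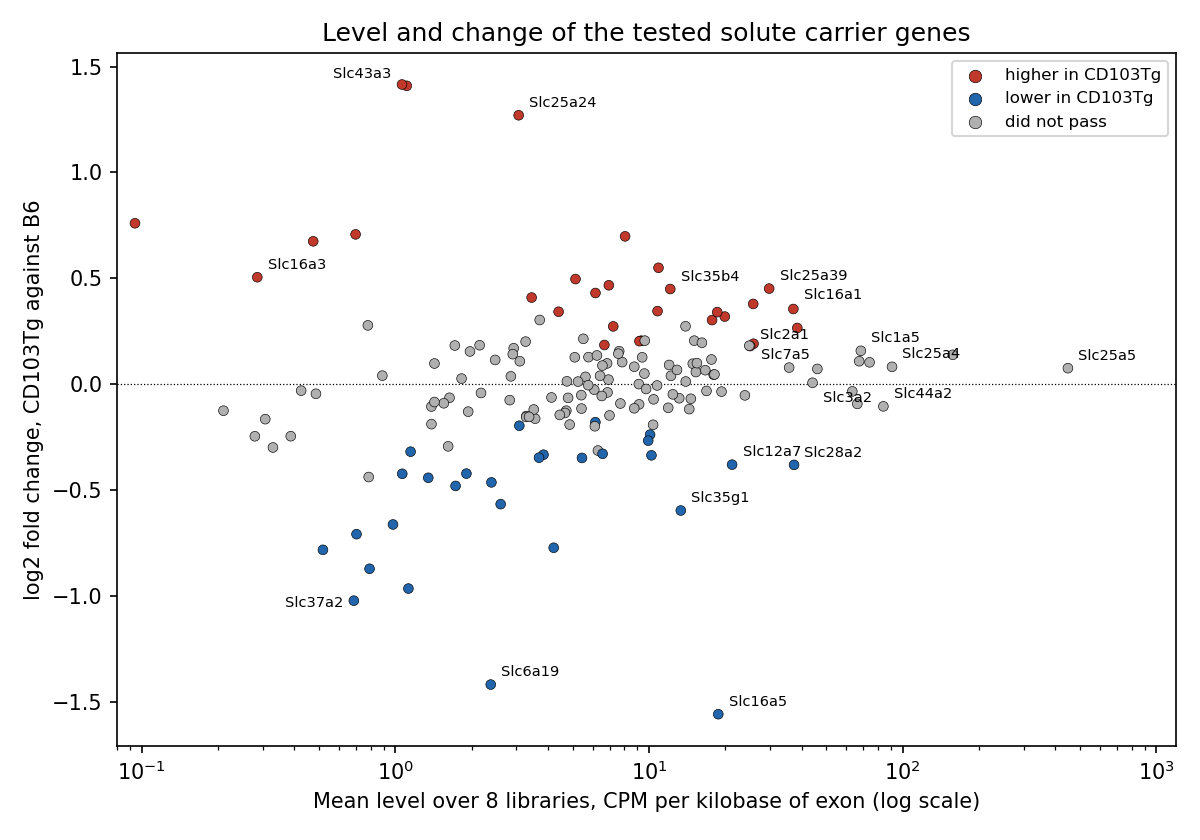
Log2 fold change (CD103Tg against B6, vertical axis) of the 169 tested solute carrier genes against their mean level in CPM per kilobase of exon (horizontal log axis); red and blue points were called higher and lower, grey points did not pass. The highest gene, Slc25a5, is near 0, while Slc43a3 and Slc6a19, with changes beyond 1.4, lie at 1.06 and 2.38 CPM per kilobase.

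Some members varied between libraries of the same group more than between groups. Slc14a1, the urea carrier, stood at 96.0, 53.0, 54.7 and 67.7 CPM in B6 and at 78.1, 43.0, 89.9 and 56.9 CPM in CD103Tg. Slc5a3, the inositol carrier SMIT1, ranged 3.33-fold within B6, from 4.86 to 16.2 CPM, and Slc18a2, a vesicular amine carrier, 3.05-fold within B6. None of these passed the test.

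Of 16 tested genes of carrier partners and other carriers 5 rose and 1 fell (37.5%, against 31.2% of all tested genes). Besides Bsg, Mpc2 and Tfrc, the organic anion carrier genes Slco3a1 (126 ± 12.5 to 170 ± 10.5 CPM) and Slco4a1 (0.955 ± 0.249 to 3.53 ± 0.801 CPM) rose, and the mitochondrial outer membrane channel gene Vdac3 by 0.30 ± 0.05. Of 14 tested regulators of carriers 4 rose, 1 fell and 9 did not pass, Atf4, Mtor and Txnip among the last. The share called was 35.7%, also near the 31.2% of all tested genes. Myc, which raises many carrier genes in activated T cells, went from 250 ± 22.4 to 307 ± 22.1 CPM (0.30 ± 0.07, adjusted p = 0.0104). Arrdc4, an arrestin-like gene whose product limits glucose uptake, stood at 9.93, 16.4, 7.04 and 13.3 CPM in B6 and at 24.7, 39.3, 26.8 and 37.5 CPM in CD103Tg. It rose by 1.42 ± 0.22 (adjusted p = 0.000654). Rptor, a subunit of the nutrient-sensing complex mTORC1, rose by 0.44 ± 0.08 and the lysosomal regulator gene Tfeb by 0.47 ± 0.09. Hif1a, a regulator of glucose and lactate carriers, fell from 166 ± 17.2 to 122 ± 14.8 CPM (adjusted p = 0.00364).

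On chromosome 11, which carries Itgae (73090583 to 73147446), 6 of 19 tested members rose and 4 fell. Over every chromosome together, 33.7% of the tested members passed, beside 31.2% of the 11503 genes in the test. The share among the other genes of chromosome 11 was not counted. Whether this chromosome stands apart, or position plays a part, was therefore not tested. The members nearest to Itgae were Slc43a2, 2.38 Mb away, and Slc25a11, 2.44 Mb away, of which Slc43a2 was called. Slc16a5 lay 42.3 Mb away.

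Of the 57 called members, 41 (20 higher, 21 lower) were called under each of the 18 alternative settings in which they were tested, and 0 changed direction under any of them. All 6 members with at least a 2-fold change were among them. Without both libraries numbered 4, which hold the erythroid transcripts, 32 members were called higher and 23 lower.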

How the data were processed

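Per the labels' protocols, RNA from a column kit was made into libraries with SMART-Seq v4 and Nextera XT, which mark neither molecules nor strand. Tools listed in the submitters' processing notes are STAR 2.7.0f, RSEM, cutadapt 1.18 and bcl2fastq 2.17, on GRCm38 (mm10). The authors deposited 1 table of TMM-scaled CPM, used here as a normalized signal and not as counts. How its genes were filtered was not stated in the labels or header. All 13245 gene IDs matched GENCODE M21. Per column, the deposited values stepped by 0.0171 to 0.0203 CPM per read, and 62.3% to 64.5% were whole reads within 0.005. These estimated reads gave the depth and a voom alternative. Library totals cover the listed genes.

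The test was limma-trend (limma 3.58.1, R 4.3.3) with genotype alone in the model, applied to log2(CPM + 1) of genes whose mean reached 1 CPM. Its p-values are two-sided and Benjamini-Hochberg adjusted over all tested genes, with calls made under 0.05. Python 3.11.15, numpy 2.4.6, pandas 2.3.3 and matplotlib 3.10.9 were used for the rest, and the fit was tested on simulated data. The members, lists and rule for named genes were chosen with earlier results of these data known. Named are 20 key T cell carriers, the 12 highest and 12 lowest called members without overlap that reached a group mean of 5 CPM, the 4 called members of each group with the smallest p (2 where none was called), called Slc25 members and called genes of the lists; others were chosen after their values were seen, and Slc36a3os was placed among non-carriers after the files were seen. Alternatives were other pseudocounts, filters, scalings, voom, a replicate block and leaving out libraries. Results of some members are not reported here, though counts over all members include them.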

Additional observations from a re-analysis of the deposited data

Results flagged for a closer look

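In 162 groups of 4 libraries (the named genes in B6 and in CD103Tg), 12 had a library whose gap to the nearest other over the group's range exceeded the 95% critical value of Dixon's test; chance gives about 1 in 20. CD103Tg replicate 4 was the outlying library in 5 of them, high each time: Slc38a2 (230.1 CPM, others 182.6 to 185.5, ratio 0.937), Slc43a1 (4.67, others 2.12 to 2.53, ratio 0.837), Slc6a19 (10.5, others 4.54 to 4.90, ratio 0.939), Slc43a3 (10.03, others 6.32 to 6.70, ratio 0.898) and Hif1a (143.8, others 113.3 to 115.9, ratio 0.915). This library also held the most erythroid transcript; the part of these in the values was not tested. CD103Tg replicate 2 was low for Slc25a23 (3.26 CPM, ratio 0.883) and high for Slc16a3 (2.84 CPM, ratio 0.907) and Tfeb (31.7 CPM, ratio 0.850). B6 replicate 4 was high for Itgae (173.9 CPM, others 37.5 to 51.4, ratio 0.898) and Slc26a11 (46.4 CPM, ratio 0.871). B6 replicate 1 was high for Slc27a1 (9.09 CPM, ratio 0.881) and low for Slc15a4 (30.5 CPM, ratio 0.848).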

How the results depend on the processing

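With other pseudocounts (0.1, 5), filters (none, 5 CPM), 3 other scalings, voom, the replicate block or any 1 library left out, the counts of all genes and of carrier genes called kept within 1.5 times. Leaving out 1 library gave 1605 to 2012 higher and 1181 to 1603 lower over all genes, and 21 to 32 and 21 to 26 over the members. With the replicate number as a block, 2029 and 1653 genes and 29 and 28 members were called. Under this block Slc25a35 (adjusted p = 0.0626) and Slc35a2 (0.0675) lost their calls, and Slc25a1 (0.0396) and Slc25a33 (0.0216) gained one. Same-numbered libraries deviated together in 3 of 4 pairs (correlations 0.221, 0.35, -0.0807 and 0.123), and 2 of 4 B6 libraries correlated best with their own number. The labels name no shared animal or batch and 1 pair fell short of 0.1, so the libraries were not treated as pairs. Leaving out 1 library gave 5 to 7 calls for amino acids, 7 to 11 for Slc25, 3 to 5 for monocarboxylates, 0 to 1 for genes that are not carriers, 1 to 3 for sugars and 1 to 2 for metal stores. A minimum mean of 5 CPM left 3 monocarboxylate, 0 organic ion and 0 sugar carriers called, since fewer genes were tested. Quantile normalization and equal totals each called 2 vitamin carriers. Leaving out both libraries numbered 4, chosen after seeing the data, gave 5 calls for amino acids and 2 for vitamins. Of the uncalled members 13 of 112 passed under some setting, and 35 changed sign without a call; the cause was not tested.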
